A study of Mus musculus with 232 samples.

Results

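The genes described here are the enzymes that write and erase DNA methylation and some of the proteins that read it in mouse embryonic stem cells (ESCs). The 10 genes were chosen by name: Dnmt1, Dnmt3a, Dnmt3b, Dnmt3l, Uhrf1, Tet1, Tet2, Tet3, Mbd2 and Mbd3. They are 10 of the 42493 genes in the files, and all 10 were among the 11186 genes kept, those with 5 or more counts per cell on average. They were followed in single ESCs of 4 conditions, all grown in medium with serum, LIF and 2i, the pair of GSK3 and MEK inhibitors that holds ESCs in a naive state. The 60 mock Dgcr8-/- cells lacked Dgcr8, a protein needed to process most miRNAs, and received no mimic. The 58 miR-294 cells were Dgcr8-/- cells given a miR-294 mimic, the 48 let-7 cells were Dgcr8-/- cells given a let-7 mimic, and the 16 wild-type cells, titled V6.5, carried intact Dgcr8 and their own miRNAs. Of the miR-294 cells, 3 were titled MIR_294 and 55 miRNA294, and the labels do not say why the titles differ. Cells were captured on 1 microfluidic chip per condition, the transfected cells 24 h after transfection. Neither the labels nor the methods say whether the wild-type cells went through a transfection. A chip effect and an effect of the condition cannot be told apart. The labels name no separate cultures and no number of knockout clones. Each condition is therefore 1 sample of many cells, no test between conditions was made, and SD values describe the spread between cells.

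DNA methylation in mammals is put on unmethylated CpG sites by the de novo enzymes DNMT3A and DNMT3B, helped by the catalytically inactive DNMT3L, and is copied to the daughter strand after replication by DNMT1, which UHRF1 guides to hemimethylated sites. The TET enzymes oxidize 5-methylcytosine and so start its removal, and MBD proteins bring the NuRD chromatin remodelling complex to DNA, MBD2 by binding methylated CpG and MBD3 with little preference for it. Naive ESCs in 2i have low DNA methylation. In miRNA-deficient ESCs, the pocket protein RBL2, a target of the miR-290 family to which miR-294 belongs, is known as a repressor of the de novo Dnmt genes. miR-294 is abundant in ESCs, whereas let-7 accumulates as cells differentiate.

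The mimics differ in their seed, bases 2 to 8 of the mature miRNA, through which a miRNA pairs with the 3′ UTR of its targets. The mature sequences from RefSeq (GRCm38.p6) are given with the seed in capitals. miR-294-3p lies at chr7:3220691-3220712 on the plus strand, and let-7c-5p is encoded at both chr15:85706616-85706637 and chr16:77599672-77599693, plus strand. The mimic is called let-7c in the study's methods, but let-7i and let-7b elsewhere in its labels. All of these let-7 miRNAs have the same seed.
miR-294-3p: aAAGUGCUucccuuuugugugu
let-7c-5p: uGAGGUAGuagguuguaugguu
let-7b-5p: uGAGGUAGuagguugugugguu
let-7i-5p: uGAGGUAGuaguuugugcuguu

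The longest annotated 3′ UTR of each gene (Gencode M21, GRCm38) was searched on the transcript strand for the complement of the seed, which is AGCACTT for miR-294 and CTACCTC for let-7. A second form, the complement of bases 2 to 7 with an adenine after it, is GCACTTA for miR-294 and TACCTCA for let-7. The forms overlap by 6 bases and an overlapping pair was counted as 1 site. At least 1 miR-294 site was found in 21.6% of the 10304 kept genes with an annotated 3′ UTR and at least 1 let-7 site in 17.1%. Among the 10 genes, Tet1, Tet2, Tet3 and Mbd2 held miR-294 sites, and Dnmt3b, Tet2 and Tet3 held let-7 sites. Dnmt1, Dnmt3a, Dnmt3l, Uhrf1 and Mbd3 had neither in these letters. The UTRs of Tet1 (7962 bases) and Tet3 (5669 bases) are long against the median of 1199 bases, and a long UTR holds more matches by its length alone. The miR-294 sites of the genes whose levels were compared are shown with the match in capitals, 5′ to 3′ on the transcript strand, together with that of Rbl2, and a match is a sequence feature and not a measured site. The site of Mbd2, 289 bases into a UTR of 480 bases, had the longest form, the complement of the seed with an adenine after it.
Tet3, chr6:83367840-83367864, minus strand: tcctcttcttccccAGCACTTtgaa
Tet3, chr6:83366208-83366232, minus strand: gaaagatttttttaAGCACTTttgc
Tet3, chr6:83363406-83363430, minus strand: ttgaaaatctacgcAGCACTTggtt
Tet2, chr3:133465911-133465935, minus strand: ttgtgtcttagaaaAGCACTTtgcc
Tet1, chr10:62811882-62811906, minus strand: tatatattttaaaaAGCACTTtcta
Tet1, chr10:62805026-62805050, minus strand: aggaaaatagttaaAGCACTTcatg
Rbl2, chr8:91123816-91123840, plus strand: gtatttttcaataaAGCACTTAtaa

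For let-7, the site of Dnmt3b and the strongest of the 3 sites of Tet3 by length of match are shown in the same way.
Dnmt3b, chr2:153686500-153686524, plus strand: gcctcacatcactgTACCTCAgctt
Tet3, chr6:83365326-83365350, minus strand: actacatgtataacCTACCTCAaat

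In the study's lists of targets from earlier population arrays, Mbd2 was the single one of the 10 genes among 492 miR-294 targets that passed the filter, which also held Rbl2, and Dnmt3b was the single one among 169 let-7c targets. The authors removed transfected cells in which such targets as a group were not lower, so the cells had been selected on a measure to which Mbd2, Rbl2 and Dnmt3b contribute.

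The files held 232 sequencing runs of 182 cells, and cells held between 513521 and 3979274 counts, with a median of 1521871. Of 50 cells with 2 runs, 48 had runs that agreed, with a chi-square per gene of 1.22 to 6.78. The runs of 1 let-7 cell and 1 wild-type cell differed as runs of different cells do (112.6 and 199.7). In the wild-type cell, Dnmt3b was at 492.5 CPM (counts scaled to the library total) in one run and 79.4 in the other. Another 4 pairs of cells with different titles (3 pairs of let-7 and 1 of miR-294 cells) agreed as repeat runs do, at 1.89 to 6.49, whereas the next closest of the other 4667 pairs within a condition was at 39.1. Leaving out 1 cell of each such pair, or the cells with disagreeing runs, kept the 8 counts of genes past 2-fold at their values, and results that moved most are given with and without them. Repeat runs of a cell differed by a median of 0.00 to 0.22 on the log2 scale across the 10 genes and pairs of cells by 0.00 to 2.78, the lowest in both cases being Tet3, which most cells lacked.

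ESC markers were counted in every condition. Pou5f1 was present in 59 of 60 mock, 58 of 58 miR-294, 47 of 48 let-7 and 16 of 16 wild-type cells, and the summed level of 10 ESC markers had a median of 9356, 9374, 6346 and 7736 normalized counts in the same order, lowest in let-7 cells. Of 10 fibroblast feeder markers, Col1a2, Col3a1, Lum and Postn were at 0 in all conditions and Fn1, which ESCs also express, made up most of the summed level. Among 12 markers of primed or differentiating cells, Gata6 and Sox17 were at 0 throughout, whereas Krt8, an epithelial keratin, had a mean of 249.5 ± 730.8 (SD, n = 60) in mock and 5.02 ± 13.2 (SD, n = 16) in wild-type cells. The summed level of these 12 genes ran from 1.79 to 5567 in mock cells (median 157.4), 0 to 614.6 in miR-294 cells (median 51.8), 0 to 1792 in let-7 cells (median 163.7) and 0 to 203.6 in wild-type cells (median 5.91). Krt8 made up most of this sum outside wild-type cells. In means it was 249.5 of 292.8 in mock, 70.5 of 93.2 in miR-294 and 215.7 of 292.8 in let-7 cells. In wild-type cells it was 5.02 of 34.2. Krt8 was counted in 53 of 60 mock cells, so the sum does not give the share of primed or differentiating cells. The part of such cells in the differences below was not tested. Dgcr8 itself had a mean of 51.5 ± 117.1 normalized counts in mock and 118.4 ± 164.6 in wild-type cells. A gene count cannot tell whether reads come from the deleted part, so this does not check the labels.

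Tet3, Mbd2, Mbd3, Dnmt3a and Dnmt3b were 2-fold or more apart in mean level in at least 1 of the 4 comparisons, and the share of all genes that passed is given beside each count. After miR-294, 0 of the 10 were 2-fold or more higher than in mock cells (5.81% of all genes were) and 2, Tet3 and Mbd2, were 2-fold or more lower (20.4% of all genes). After let-7, 1 was higher, Tet3 (18.9% of all genes), and 0 were lower (9.24%). In mock cells, 2 were higher than in wild-type cells, Tet3 and Mbd2 (32.1%), and 1 was lower, Dnmt3b (9.32%). In miR-294 cells, 2 were higher than in wild-type cells, Mbd2 and Mbd3 (24%), and 2 were lower, Dnmt3a and Dnmt3b (13.3%). The median log2 ratio of the 10 was -0.27, -0.06, 0.21 and -0.04 in the order of these comparisons, beside -0.28, 0.18, 0.38 and 0.08 for all genes. Tet3 and Mbd2 passed the filter of 5 counts on average through mock and let-7 cells, in which they were higher. Their mean normalized counts were 3.15 and 2.28 in miR-294 cells and 1.61 and 0.47 in wild-type cells. Their calls are therefore not independent of that filter. The comparisons share cells: mock cells stand in 3 of the 4, miR-294 cells in 2 and wild-type cells in 2. The direction of all genes together was the same under the scalings given next, but the size of the imbalance depended on scaling. For miR-294 over mock the direction turned with the summary: on medians over cells plus 1, 1326 genes were higher and 1244 lower. Of all genes, 650 were higher and 2285 lower after miR-294 with size factors, 860 and 1763 with total counts, and 1016 and 1635 once ratios were centred on the median gene. The corresponding centred numbers were 1689 and 1348 after let-7, against 2111 and 1034 before, and 2813 and 1832 in mock against wild-type cells, against 3587 and 1043 before.

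**Figure D1:**
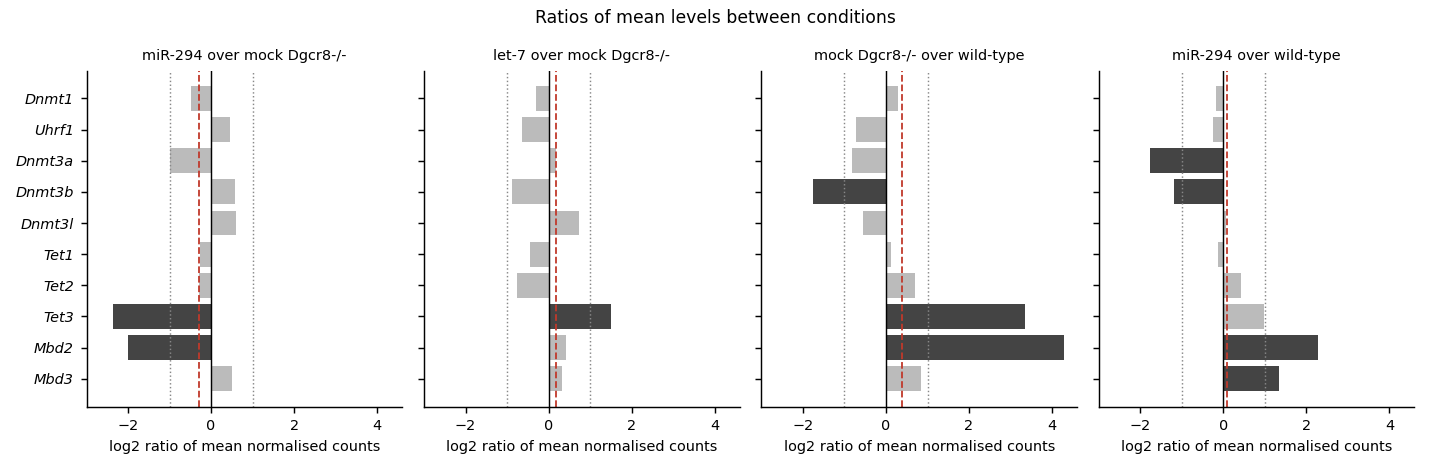
Log2 ratio of the mean normalized count per cell for each of the 10 genes in each of the 4 comparisons (panels), with dark bars where the ratio is 2-fold or more, dotted lines at 2-fold and a dashed red line at the median of all 11186 genes. Tet3 and Mbd2 have the longest bars, to -2.37 for Tet3 after miR-294 and to 3.34 and 4.28, respectively, in mock over wild-type cells.

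Per length of transcript, the 10 genes covered a wide range of levels. In the FPKM values of mock cells, Dnmt3l came first at a mean of 187.7 ± 176.4 (SD, n = 60), followed by Uhrf1 at 140.4 ± 97.1, Tet1 at 90.4 ± 88.1 and Tet2 at 55.1 ± 30.8. Dnmt1 (30.9 ± 30.7), Mbd3 (30.5 ± 50.6), Dnmt3b (14.7 ± 24.2) and Dnmt3a (10.2 ± 18.5) lay below them, and Mbd2 (4.33 ± 8.87) and Tet3 (1.30 ± 3.58) came last. Each neighbouring pair in this order differed by less than the larger of its SDs between cells. In wild-type cells Dnmt3l (316.5 ± 130.7, n = 16) and Uhrf1 (258.5 ± 109.6) again led, and Dnmt3b (53.4 ± 62.2) stood above Tet2 (37.3 ± 22.9) and Dnmt1 (27.9 ± 29.3). A typical cell had counts for a median of 8 of the 10 genes in every condition, with 5 as the fewest. All 10 were counted in 7 mock, 3 miR-294, 4 let-7 and 0 wild-type cells.

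**Figure D2:**
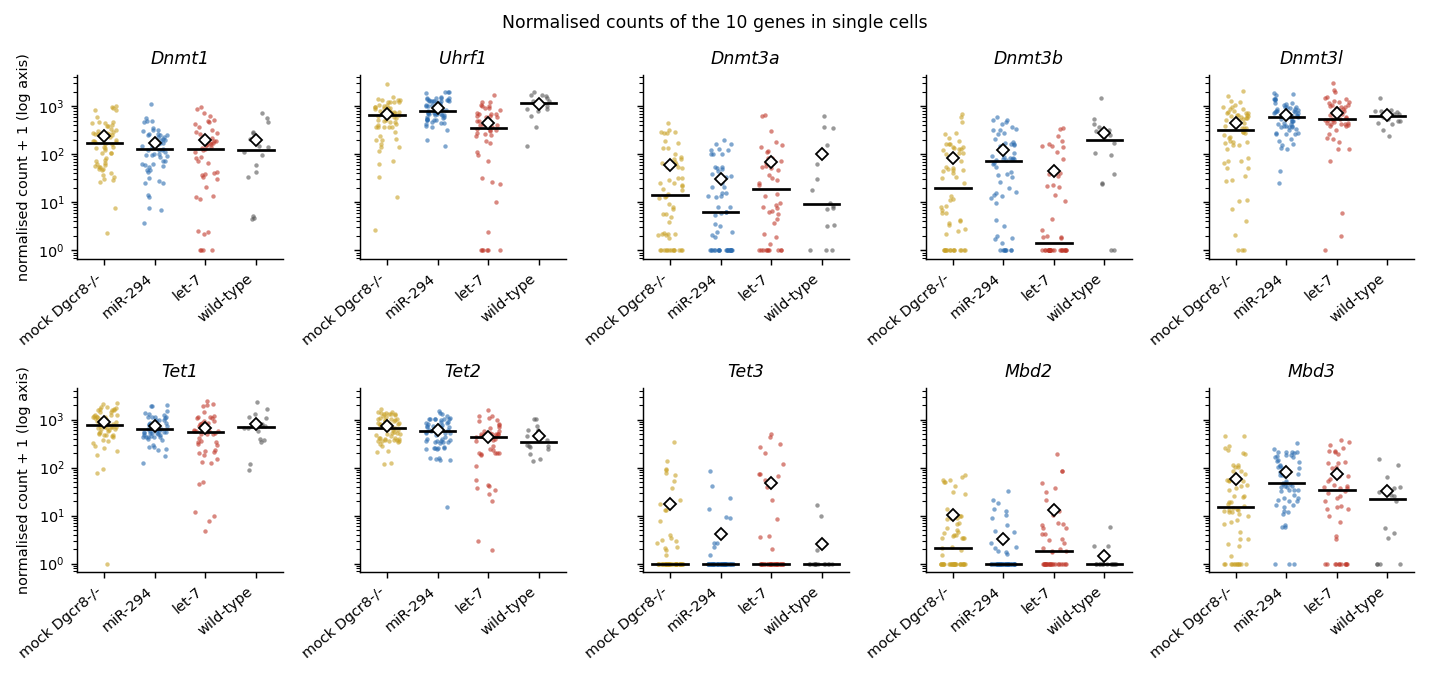
Normalized count plus 1 on a log axis of each of the 10 genes in every cell (points), by condition, with the median (line) and the mean (diamond). Tet1, Tet2 and Uhrf1 fill the upper part of the axis in most cells, Dnmt3l reaches low values in part of the mock cells, the Dnmt3b median falls to the floor in let-7 cells, and most cells of each condition have no count of Tet3.

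Of the maintenance pair, Dnmt1 was similar in all conditions. It ran from 1.33 to 1001 normalized counts in mock cells (median 171.4), from 2.76 to 1130 in miR-294 cells (125.7), from 0 to 944.5 in let-7 cells (129.5) and from 3.55 to 709.1 in wild-type cells (123.7). The conditions overlapped over nearly their whole range, and the log2 ratios of the means lay between -0.48 (miR-294 over mock) and 0.29 (mock over wild-type). On the mean of log2 values, to which cells without counts weigh more, that of let-7 over mock was -1.06. Counts were found in all mock, miR-294 and wild-type cells and in 44 of 48 let-7 cells.

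Uhrf1 was highest in wild-type cells and lowest in let-7 cells. It had a mean of 682.4 ± 496.2 (SD, n = 60) and ran from 1.65 to 2858 (median 650.1) in mock cells. In miR-294 cells the mean was 938.2 ± 466.7 (n = 58; 149.9 to 2011, median 803.7). In let-7 cells it was 441.1 ± 400.5 (n = 48; 0 to 1671, median 352.4), and in wild-type cells 1125 ± 509.6 (n = 16; 145.5 to 2005, median 1190). The ranges overlapped, and each of these differences in means was under 2-fold, with log2 ratios of 0.46 for miR-294 and -0.63 for let-7 over mock, -0.72 for mock over wild-type and -0.26 for miR-294 over wild-type. A miR-294 cell was the higher in 65.9% of all pairs of a miR-294 and a mock cell, a let-7 cell in 33.8% of pairs with a mock cell, and a mock cell in 24.4% of pairs with a wild-type cell. Uhrf1 was counted in every cell but 6 of the 48 let-7 cells. On the mean of log2 values the let-7 difference was -1.64 and that of mock over wild-type -1.08, and the latter was -1.10 after centring on the median gene.

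From cell to cell, Uhrf1 varied with genes of DNA synthesis. The gene most like it across mock, miR-294 and let-7 cells, among 5343 genes averaging 50 or more counts, was Rrm2, the small subunit of ribonucleotide reductase, with Spearman correlations of 0.74, 0.56 and 0.53. In the 16 wild-type cells, which the search did not use, the correlation was 0.79. The second was Mcm7 of the replicative helicase (0.42, 0.40 and 0.46). The summed level of 20 G1/S and S phase genes correlated with Uhrf1 at 0.64 in mock, 0.61 in miR-294, 0.64 in let-7 and 0.84 in wild-type cells. These are descriptions over cells of 1 library set each, whose correlation with the total count was -0.28 to -0.01 for Uhrf1. The same 20 genes had a median summed level of 6951 in mock, 7621 in miR-294, 6961 in wild-type and 3958 in let-7 cells. The means of this sum were 7414 in mock, 7534 in miR-294, 7594 in wild-type and 4371 in let-7 cells. Uhrf1 and this sum were both lowest in let-7 cells. Among the other conditions the sums were close, and which was highest depended on the summary. The part of these genes in the differences of Uhrf1 between conditions was not tested. Rrm2 itself had a mean of 155 ± 203.9 in let-7 cells against 770.5 ± 723.3 in mock cells. Of the 20 genes, 3 were 2-fold or more lower after let-7 (Rrm2 at a log2 ratio of -2.31, the licensing factor Cdc6 at -1.87 and Mcm2 at -1.20), where 9.24% of all genes were, and 0 were higher (18.9% of all genes). Rrm2 is also on the study's list of high-confidence let-7c targets. That list took only genes lower in these same let-7 cells than in Dgcr8-/- cells, so its place there is no separate support. After miR-294, 0 of the 20 passed 2-fold in either direction (5.81% of all genes higher and 20.4% lower). For Dnmt1, the correlation with the same sum was 0.16 to 0.28.

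**Figure D3:**
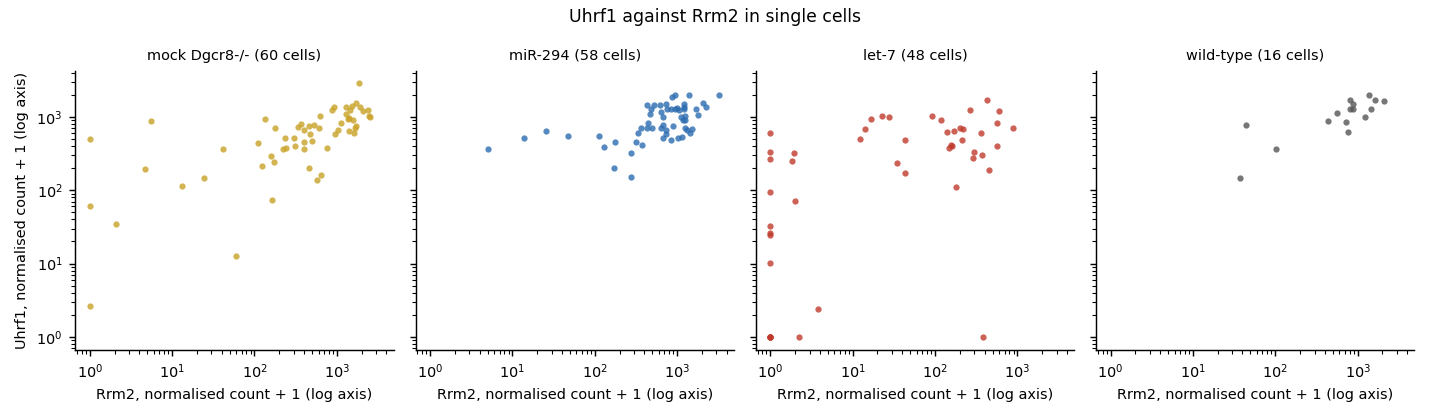
Normalized counts plus 1 of Uhrf1 (vertical, log axis) against Rrm2 (horizontal, log axis) in each cell, 1 panel per condition. Points rise together in each panel, with Spearman correlations of 0.74 in mock, 0.56 in miR-294, 0.53 in let-7 and 0.79 in wild-type cells, and let-7 cells spread to the lower left, several without a count of either gene.

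The promoters of both maintenance genes held a motif of the kind bound by E2F factors, which drive genes of the G1/S transition. The motifs TTTCCCGC, TTTCGCGC, TTTGCCGC and TTTGGCGC were searched on both strands in RefSeq windows of 300 bases around annotated starts (GRCm38.p6), which matched 9 of the 10 genes. At least 1 was found for Dnmt1 and Uhrf1, at 1 of several annotated starts each, and for none of the other 7, against 2.6% of 27025 genes. Both matching windows held 33 CpG, against a median of 7 over all windows, so 2.6% is not the share among windows alike in CpG. Rrm2, the gene most like Uhrf1, had no motif in its window of 40 CpG, whereas Cdc6 and Mcm7 each had at least 1. The windows around the match are shown for Dnmt1 and Uhrf1, the members of the maintenance step, with the motif in capitals in the direction of transcription.
Dnmt1, chr9:20952824-20952853, minus strand: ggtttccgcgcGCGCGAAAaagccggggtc
Uhrf1, chr17:56304117-56304146, plus strand: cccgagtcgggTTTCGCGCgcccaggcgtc

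Of the de novo enzymes, Dnmt3b had its highest mean in wild-type cells and its lowest in let-7 cells. In wild-type cells it had a mean of 277 ± 370.2 normalized counts (SD, n = 16), ran from 0 to 1515 with a median of 200.1, and was counted in 14 of 16 cells. Mock cells had a mean of 81.1 ± 138.3 (n = 60; 0 to 690.2, median 18.7), and 45 of 60 cells had counts. With miR-294 the mean was 120.8 ± 153.2 (n = 58; 0 to 582.3, median 69.8) and 50 of 58 cells had counts. With let-7 it was 44.1 ± 87 (n = 48; 0 to 355, median 0.41) and 24 of 48 cells had counts. Cells at or near 0 occurred in every condition, so that the ranges overlapped.

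The log2 ratio of Dnmt3b was -1.77 for mock over wild-type cells, and a mock cell was the higher in 27% of pairs. It was -1.20 for miR-294 over wild-type, 0.57 for miR-294 over mock and -0.88 for let-7 over mock. A single wild-type cell held 34.2% of the wild-type sum, and without the highest cell of each condition the ratio of miR-294 over wild-type was -0.79, under 2-fold, and that of mock over wild-type -1.46. The let-7 ratio passed 2-fold with FPKM (-1.04), with each cell thinned to 500000 counts (-1.05) and after centring on the median gene (-1.06), and was -1.54 on the mean of log2 values and -3.80 on medians plus 1. The same summaries gave 1.08 and 1.85 for miR-294 over mock. The exact 95% binomial interval of the share of cells with counts was 35.2 to 64.8% for let-7, 62.1 to 85.3% for mock and 74.6 to 93.9% for miR-294 cells. These intervals cover the sampling of cells only and not a difference between cultures. The pairs of cells that agreed as repeat runs do are taken in them as separate cells. At an equal depth of 500000 counts per cell, the shares were 41.7%, 66.7% and 81% in the same order and 87.5% in wild-type cells.

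Dnmt3a had low medians and a few high cells in each condition. The median was 13.4 normalized counts in mock, 5.16 in miR-294, 18.1 in let-7 and 8.0 in wild-type cells, whereas the highest cells reached 440.5, 199, 640 and 616.4. The means were 58.7 ± 97.9 in mock, 29.8 ± 48.9 in miR-294, 66.8 ± 133.5 in let-7 and 102.5 ± 183.6 in wild-type cells. The log2 ratio was -1.78 for miR-294 over wild-type and -0.98 for miR-294 over mock, just under 2-fold. The latter was -1.08 with FPKM and -1.22 on medians plus 1. It was smaller with pooled counts (-0.72), after centring on the median gene (-0.70), with total counts (-0.68) and with thinned counts (-0.57). One cell held 37.6% of the wild-type sum, against 12.5% in mock, 11.5% in miR-294 and 20% in let-7 cells. On medians plus 1 the ratio of miR-294 over wild-type was -0.55, and that of mock over wild-type turned from -0.81 to 0.67, whereas with total counts it was -1.03. Dnmt3a and Dnmt3b did not share an order of conditions. The miR-294 cells had the lowest mean of Dnmt3a and a higher mean of Dnmt3b than mock cells, and the correlation of both genes over cells was -0.21 in mock, 0.46 in miR-294, -0.03 in let-7 and 0.35 in wild-type cells.

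Dnmt3l, the cofactor of both enzymes, was counted in nearly all cells, with low counts in part of the mock cells. It ran from 0 to 2081 in mock cells (median 318.7), from 24.5 to 1871 in miR-294 cells (581.9), from 0 to 3056 in let-7 cells (546) and from 239.7 to 1455 in wild-type cells (634.5). The lower quartile of mock cells, 72.7 normalized counts, lay below the lowest wild-type cell. Both mimics went with higher means than mock, 670.3 ± 447.1 and 735.5 ± 604.4 against 439.1 ± 434.7, at log2 ratios of 0.61 and 0.74, and the mean in miR-294 cells was close to that of wild-type cells (645.6 ± 281.3, log2 ratio 0.05). These ratios of means were under 2-fold, but on the mean of log2 values they were 1.55 for miR-294 and 1.27 for let-7 over mock, and -1.77 for mock over wild-type. The coefficient of variation over cells was 0.44 in wild-type and 0.99 in mock cells.

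Rbl2 differed more between conditions than any of the 10 genes in miR-294 over mock cells. The pocket protein had a mean of 63.7 ± 137.1 normalized counts in mock cells (0 to 583, median 1.21), 5.30 ± 17.2 in miR-294 cells (0 to 110.1, median 0), 28.5 ± 64.4 in let-7 cells (0 to 330.4, median 0), and 2 counts in all in 1 of 16 wild-type cells. It was counted in 32 of 60 mock, 13 of 58 miR-294 and 22 of 48 let-7 cells. The log2 ratio was -3.59 for miR-294 over mock and -1.16 for let-7 over mock. In pooled counts, mock cells had 432 times the CPM of wild-type cells, with a counting interval (exact, 95%) of 120 to 3572 that rests on those 2 counts. Across single cells, the Spearman correlation of Rbl2 with Dnmt3b was 0.17 in mock, -0.11 in miR-294, 0.03 in let-7 and -0.14 in wild-type cells. Many of these values are ties at 0 and weak correlations are no finding. Rbl1, the related pocket protein, was named after its values were seen and had means of 45.2 ± 76.7 in mock, 23.6 ± 48.4 in miR-294, 49 ± 84.8 in let-7 and 22 ± 42.6 in wild-type cells.

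The list drawn up for regulators of the de novo enzymes held 8 genes, of which 7 passed the filter, and these went both ways. After miR-294, 2 were 2-fold or more higher (5.81% of all genes) and 2 lower (20.4%), and after let-7, 1 was higher (18.9%) and 3 were lower (9.24%). In mock over wild-type cells 4 were higher (32.1%) and 2 lower (9.32%), and in miR-294 over wild-type cells 3 were higher (24%) and 1 lower (13.3%). Tcl1, whose protein is reported to bind and inhibit the de novo enzymes, had means of 84.6 ± 126.5 in mock, 225.2 ± 184.3 in miR-294, 33 ± 89.7 in let-7 and 286.5 ± 214.5 in wild-type cells, so that its order over the conditions was the same as that of Dnmt3b. Prdm14, a naive-state factor that represses Dnmt3a, Dnmt3b and Dnmt3l, was at 88.4 ± 183.2 in mock, 35.9 ± 83.4 in miR-294, 28.7 ± 106.7 in let-7 and 14.6 ± 21.9 in wild-type cells. Zscan4c, of a multigene family among which reads can be split, had a mean of 310.1 ± 2319 in miR-294 cells and 1128 ± 5575 in let-7 cells against 6.41 ± 41.6 in mock cells, values set by few cells. Trdmt1, a tRNA methyltransferase on the same list, was lower in mock (8.08 ± 39.6) and miR-294 cells (7.78 ± 27.2) than in wild-type cells (21.3 ± 49.9). It was the 1 lower gene of the list in miR-294 over wild-type cells, so the counts are not of regulators of the de novo enzymes alone.

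Of the TET dioxygenases, Tet1 and Tet2 were abundant in all conditions. Tet1 had means of 886.6 ± 522.4 in mock, 740.1 ± 424.6 in miR-294, 652.2 ± 571.5 in let-7 and 809.9 ± 576.5 in wild-type cells, with log2 ratios between -0.44 and 0.13. The sign of Tet1 in mock over wild-type cells changed with 5 other scalings or weightings. Tet1 ran from 0 to 2155 in mock, 122.2 to 2051 in miR-294, 3.86 to 2422 in let-7 and 90.01 to 2298 in wild-type cells, and only 1 cell of all conditions, a mock cell, had no count. The means of Tet1 and Tet2 were less than 2-fold apart in all 4 comparisons.

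Tet2 had its highest mean in mock cells. Its means in let-7 and wild-type cells were nearly equal and lower, and its median was lowest in wild-type cells. It had means of 735.8 ± 391.5 in mock (115.9 to 1688, median 663.1), 603.7 ± 348.8 in miR-294 (14.2 to 1472, median 570.8), 438.6 ± 352.8 in let-7 (0.96 to 1561, median 438.4) and 451.4 ± 289.4 in wild-type cells (133.4 to 1046, median 331.6). It was counted in every cell. A let-7 cell was the higher in 28.5% of pairs with a mock cell, at a log2 ratio of -0.75, and a mock cell in 72.7% of pairs with a wild-type cell, at 0.71. On the mean of log2 values the let-7 ratio was -1.33. Centring on the median gene took the ratio of miR-294 over mock from -0.29 to -0.01. It took that of mock over wild-type to 0.33 and that of let-7 over mock to -0.93. The ranges overlapped. The gene most like Tet2 over mock, miR-294 and let-7 cells was Cep162, with correlations of 0.34, 0.44 and 0.41, and no gene most like any of the other 8 besides Uhrf1 passed a smallest correlation of 0.28.

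Tet3 was rare, and its means were 2-fold or more apart in 3 of the 4 comparisons, as were those of Mbd2. It was counted in 22 of 60 mock, 10 of 58 miR-294, 17 of 48 let-7 and 3 of 16 wild-type cells, and its median was 0 in each condition. The highest cells reached 344.7, 85.6, 510.4 and 15.9 normalized counts, so that the means of 16.3 ± 50.9 in mock, 3.15 ± 12.7 in miR-294, 46.2 ± 111.5 in let-7 and 1.61 ± 4.41 in wild-type cells rest on a minority of cells. In pooled counts it was at 12.8 CPM (exact 95% interval 12.2 to 13.6) in mock, 2.15 (1.87 to 2.45) in miR-294, 25.7 (24.6 to 26.8) in let-7 and 1.23 (0.83 to 1.75) in wild-type cells, where reads are not independent molecules and the intervals cover counting error only.

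The log2 ratio of Tet3 was -2.37 for miR-294 over mock, 3.34 for mock over wild-type and 0.97 for miR-294 over wild-type. The mean in let-7 cells was 2.84-fold that in mock cells. As the medians are 0, no difference remained on medians plus 1, and on the mean of log2 values the log2 ratios were under 2-fold, at -0.85 for miR-294 over mock, 0.62 for let-7 over mock and 0.86 for mock over wild-type. Without the highest cell of each condition they were -2.65, 1.76 and 4.03. With FPKM the ratio of miR-294 over mock was -1.03 and that of miR-294 over wild-type 2.53. Among the near-identical let-7 pairs, one held 510.4 and 429.5 normalized counts of Tet3 and another 305.1 and 270. With 1 cell of each pair left out the log2 ratio of let-7 over mock was 1.05, and in pooled counts let-7 cells had 2 times the CPM of mock cells (1.87 to 2.14). Its share of cells with counts was near equal in let-7 and mock cells, 35.4% (22.2 to 50.5%) and 36.7% (24.6 to 50.1%), while the highest let-7 cells had more counts than the highest mock cells. Tet3 holds matches to both seeds, as shown above.

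**Figure D4:**
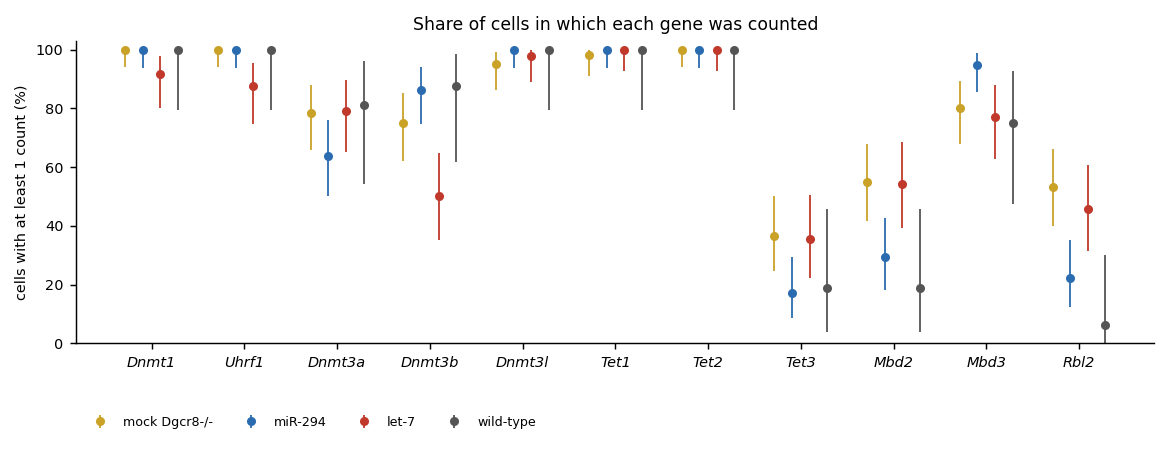
Share of cells with at least 1 count of each of the 10 genes and Rbl2, by condition, with exact 95% binomial intervals. The intervals cover the sampling of cells only and take near-identical cells as separate. Tet3, Mbd2 and Rbl2 are counted in fewer miR-294 and wild-type cells than mock and let-7 cells, and Dnmt3b falls to 50% in let-7 cells.

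Of the MBD proteins, Mbd2 was near the limit of counting. It was found in 33 of 60 mock, 17 of 58 miR-294, 26 of 48 let-7 and 3 of 16 wild-type cells. Means were 9.11 ± 17.6 normalized counts in mock (0 to 67.9, median 1.16), 2.28 ± 5.85 in miR-294 (0 to 31.9, median 0), 12.2 ± 32.6 in let-7 (0 to 194.3, median 0.85) and 0.47 ± 1.26 in wild-type cells (0 to 4.87, median 0). Wild-type cells held 7 counts in all. The mean in miR-294 cells was 3.99-fold lower than in mock cells. The log2 ratio was 4.28 for mock over wild-type, 2.28 for miR-294 over wild-type and 0.42 for let-7 over mock. In pooled counts the CPM was 22-fold higher in mock than in wild-type cells, with a counting interval of 10.6 to 55, and 0.291 times that of mock in miR-294 cells (0.245 to 0.343). The log2 ratio of miR-294 over mock stayed past 2-fold in each other setting that kept Mbd2, at -1.01 to -2.20, whereas that of miR-294 over wild-type was 0.42 on the mean of log2 values. The share of cells with counts at 500000 counts per cell was 45% in mock, 24.1% in miR-294, 39.6% in let-7 and 6.25% in wild-type cells.

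Mbd3, the core MBD subunit of NuRD in ESCs, was higher in miR-294 than in wild-type cells. It had means of 57 ± 98.7 in mock (0 to 453, median 14.4), 80.6 ± 76.4 in miR-294 (0 to 324.6, median 46.3), 71.6 ± 96.1 in let-7 (0 to 366, median 33.5) and 31.9 ± 43.6 in wild-type cells (0 to 152, median 21.6). The log2 ratio of miR-294 over wild-type was 1.34, and it stayed between 1.07 and 2.00 in the other settings. That of miR-294 over mock was 0.50 on means and 1.62 on medians plus 1. Counts were present in 55 of 58 miR-294, 48 of 60 mock, 37 of 48 let-7 and 12 of 16 wild-type cells.

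The genes that work with the 10 are given by lists, whose counts stand beside the shares of all genes past 2-fold. These were 5.81% higher and 20.4% lower after miR-294, 18.9% and 9.24% after let-7, and 32.1% and 9.32% in mock over wild-type cells. Of 11 other NuRD subunits, 0 were 2-fold apart after miR-294 or let-7 in either direction. In mock over wild-type cells 2 were higher, the subunit Mta1 (21.6 ± 43.2 against 7.02 ± 10.7) and the deacetylase Hdac2 (171.3 ± 238.9 against 83.9 ± 127.3), and 1 was lower, Cdk2ap1. The median log2 ratio of these 11 was -0.18 after miR-294 and -0.19 after let-7.

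Of 8 other readers of methylated or hemimethylated DNA, 6 passed the filter. After miR-294, 3 were 2-fold or more lower (20.4% of all genes) and 0 higher (5.81%), and after let-7, 0 passed in either direction (18.9% of all genes higher and 9.24% lower). Zbtb38, a zinc finger protein that binds methylated CpG, was by far the most abundant. It was at 1168 ± 1108 in mock (0 to 4938, median 844.1), 342.6 ± 337.4 in miR-294 (0 to 1451, median 238.7), 1913 ± 1514 in let-7 (1.12 to 6228, median 1533) and 335.3 ± 392.3 in wild-type cells (0 to 1552, median 289.7). The order let-7, mock, miR-294 and wild-type was that of the means of Tet3 and Mbd2. A miR-294 cell was the higher in 18.9% of pairs with a mock cell (log2 ratio -1.77) and a mock cell in 81.7% of pairs with a wild-type cell (1.80), while miR-294 and wild-type cells were close (0.03).

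Of 11 partners of maintenance and imprint protection, 2 were 2-fold or more higher and 0 lower after miR-294, and 0 were higher and 1 lower after let-7. Cdca7, which recruits the remodeller HELLS, was at 99.0 ± 114.8 in mock, 221.9 ± 155.7 in miR-294, 96.3 ± 118.8 in let-7 and 305 ± 311.2 in wild-type cells. Setdb1, an H3K9 methyltransferase, was at 114.1 ± 165.9 in let-7 and 252.3 ± 224.3 in mock cells. In mock over wild-type cells 2 were higher and 2 lower, with Zfp57, which protects imprints, at 1228 ± 854.2 against 584.8 ± 488.5.

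Of 13 genes of demethylation and base excision repair, 12 passed the filter. After miR-294, 0 were 2-fold apart, and after let-7, 0 were higher and 2 lower, Parp1 (245.9 ± 260 against 622.7 ± 512.3) and the uracil glycosylase Ung (20 ± 48.6 against 47 ± 68.8). In miR-294 over wild-type cells 2 were higher (24% of all genes) and 2 lower (13.3%). The higher were the repair ligase Lig3, at 55.5 ± 124.9 against 11.7 ± 20, and its partner Xrcc1, at 94.5 ± 120.1 against 42.3 ± 64.7. Of the lower, Tdg, the glycosylase that excises the products of TET, was at 64.3 ± 89 in miR-294 and 146.2 ± 158.2 in wild-type cells, a log2 ratio of -1.19, and Smug1, a uracil glycosylase, at 10.2 ± 39.7 and 21.4 ± 64.1.

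A list of 12 genes took in the methionine and S-adenosylmethionine cycle, which supplies the methyl group, and enzymes of serine, glycine and threonine metabolism. Of these 12, 11 passed the filter. After miR-294, 2 were 2-fold or more higher and 0 lower, the serine hydroxymethyltransferases Shmt1 (335.1 ± 299.6 against 126.2 ± 160.3) and Shmt2 (278.2 ± 211.9 against 128.3 ± 132.5). After let-7, 0 were higher and 3 lower, among them Tdh, the threonine dehydrogenase of mouse ESCs (395.7 ± 426.5 against 1059 ± 640), and Mat2a, which makes S-adenosylmethionine (490 ± 332.8 against 1035 ± 516.2). The median log2 ratio of the list was 0.27 after miR-294 and -0.77 after let-7, beside -0.28 and 0.18 for all genes.

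Of 15 germline genes known to be silenced by promoter methylation, 7 passed the filter. After miR-294, 0 were 2-fold or more higher (5.81% of all genes) and 3 lower (20.4%), with Hormad1 at 18.4 ± 29.5 against 54.4 ± 81.5 in mock cells. After let-7, 3 were higher (18.9% of all genes) and 0 lower (9.24%), with Fkbp6 at 64.7 ± 118.1 against 22.4 ± 59.2 and Dazl at 40.9 ± 103.5 against 17 ± 50.5. In mock over wild-type cells 3 were higher and 3 lower. The lower were Stk31, Fkbp6 and Dazl, with Fkbp6 at 54.7 ± 109.3 and Dazl at 53.4 ± 120.2 in wild-type cells. Hormad1 was among the higher, at 4.27 ± 8.78 in wild-type cells. Their summed level had a median of 85.5 normalized counts in mock, 54.9 in miR-294, 89.4 in let-7 and 116.2 in wild-type cells, and DNA methylation itself was not measured.

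Over cells of 1 condition, the Spearman correlations between pairs of the 10 genes ran from -0.21 (Dnmt3a with Dnmt3b and with Dnmt3l) to 0.38 (Tet1 with Mbd3) in the 60 mock cells. They ran from -0.29 (Tet2 with Tet3) to 0.46 (Dnmt3a with Dnmt3b) in the 58 miR-294 cells and from -0.37 (Dnmt1 with Tet1) to 0.32 (Uhrf1 with Tet3) in the 48 let-7 cells. In the 16 wild-type cells, where few points carry each value, they ran from -0.54 (Dnmt3l with Uhrf1) to 0.55 (Dnmt3a with Uhrf1). The most alike genes by the search had smallest correlations of 0.20 to 0.34 other than for Uhrf1. They were Brms1 and Id1 for Dnmt1, Med15 and Gins4 for Dnmt3a, Tomm7 and Tdh for Dnmt3b, Upp1 and Gabpa for Dnmt3l, Ppp2r2d and Gemin4 for Tet1, Nup107 and Arhgap1 for Tet3, Dnajb1 and Cldnd1 for Mbd2, and Zcchc8 and Etnk1 for Mbd3. In counts this sparse, such weak correlations are no finding.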

How the data were processed

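Single-cell mRNA libraries were prepared on the Fluidigm C1 with 1 chip per condition, and the cells had been filtered by the authors, as described in their methods. Per the labels and methods, reads were assigned to Gencode M4 genes (GRCm38) with RSEM 1.2.19. The authors deposited 2 values for each gene and run, a raw expected count and an FPKM value scaled for length and depth. Repeat runs of a cell were added up before rounding. Normalized counts are counts divided by size factors of the DESeq kind, which rest on 862 genes found in all cells. FPKM was used to compare genes and as an alternative. Of 42493 gene identifiers, 41674 matched a symbol.

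A gene was called where the ratio of mean normalized counts was 2-fold or more. No test was run, since each condition is 1 sample. Intervals are exact (Poisson or Clopper-Pearson, 95%). Those of pooled counts and their ratios cover counting error only, since reads carry no molecular identifiers. Those of shares of cells cover the sampling of cells only. Total counts per cell were 513521 to 3979274, and 3 counts, the limit of a count of 0, are 0.029 to 0.123 CPM in a condition's pooled counts. Alternatives changed scaling (TMM of edgeR 4.0.16), summary, filter, fold, runs and cells. No doublet caller was run, since the authors had left out capture sites with several cells by microscope. Python 3.11.15, numpy 2.4.6, scipy 1.17.1 and pandas 2.3.3 were used.

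The 10 genes and the lists were chosen with earlier results of these data known. Named were all 10 genes, Dgcr8 and Rbl2, for each list and comparison at most 4 genes past 2-fold with a mean of at least 20 normalized counts in either condition, and the 2 genes most alike to each of the 10 by the smallest Spearman correlation over mock, miR-294 and let-7 cells. Near-identical cells were set by a chi-square per gene under 10, chosen after its values were seen.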

Additional observations from a re-analysis of the deposited data

How the results depend on the processing

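Each condition was 1 sample on 1 chip, so chip, culture and condition cannot be told apart, and depth limits Tet3, Mbd2 and Rbl2, which most wild-type cells lacked. Counts of genes past 2-fold were recomputed with other settings, of which centring, the mean count of at least 50 and the removal of cells with disagreeing runs were chosen after seeing the data. Of these counts, 94 stayed within 1.5 times their value and 30 moved. Of the log2 ratios of single genes, 604 stayed within 1 SD between cells (on the log2 scale) of their value, which is wide, and 8, of Tet3 and Mbd2, did not. No ratio of 2-fold or more changed sign. Smaller ratios did in at least 1 setting, namely Dnmt1 and Tet1 in mock and miR-294 over wild-type, Tet1 in miR-294 over mock, Dnmt3a in let-7 over mock and mock over wild-type, Mbd2 in let-7 over mock, Mbd3 in mock over wild-type and Dnmt3l in miR-294 over wild-type. No paired analysis was possible because no result comes from a test, and a number in a title names a cell of its own chip and pairs no cells across conditions. The causes were not tested, other than where fewer genes were kept.

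For miR-294 over mock, the count higher was 2 on medians plus 1, 3 on mean log2 values and 1 at a fold of 1.5, and the count lower was 1 on mean log2 values and 0 at a mean count of at least 50, where Tet3 and Mbd2 are not kept. For let-7 over mock, the count higher was 0 on pooled counts, 2 at a fold of 1.5 and 0 at a mean count of at least 50. The count lower was 1 on medians, with FPKM, with thinned counts and after centring, 4 on mean log2 values and 3 at a fold of 1.5. For mock over wild-type, the count lower was 2 with TMM factors, total counts, pooled counts and thinned counts, 3 on mean log2 values, at a fold of 1.5 and after centring. The count higher was 1 on medians and on mean log2 values, 4 at a fold of 1.5 and 0 at a mean count of at least 50. For miR-294 over wild-type, the count higher was 1 on medians, on mean log2 values and at a mean count of at least 50, and the count lower was 1 on medians and without the highest cell of each gene.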
